A study of Mus musculus with 4 samples.

Results

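The circadian clock genes of the mouse kidney cortex were examined in single nucleus RNA sequencing (snRNA-seq) data. The genes were chosen by name: the activators *Arntl* and *Clock*, the period genes *Per1*, *Per2* and *Per3*, the repressors *Ciart*, *Nr1d1* and *Nr1d2*, and the output transcription factors *Dbp* and *Tef*. Of these 10 names, 9 had a row among the 19609 gene rows used, and *Per3* was not analysed here. Nuclei came from 4 male mice of a mixed strain, with 1 mouse in each condition. The Control mouse carried TRE-hKLF6 alone, a human *KLF6* transgene that stays silent without its transactivator, and its label gives no treatment. The Control AAI mouse had the same genotype and received aristolochic acid I (AAI), a plant toxin that damages DNA in the proximal tubule. The hKLF6 overexpression (OE) mouse and the OE AAI mouse carried CAG-rtTA together with TRE-hKLF6. That transactivator is driven by a broadly active promoter, so overexpression was global and not limited to the tubule. Per the methods, mice of both genotypes ate a doxycycline diet for 1 week, AAI was given once at 2 mg/kg into the abdomen, and kidneys were taken 24 hours later. The methods name DMSO alone as the control injection, which the labels of the mice without AAI do not mention. The age of these mice and the time of day of collection are not given in the sources used here.

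The mammalian clock is a loop of transcription and repression that runs in nearly every cell. BMAL1, the product of *Arntl*, pairs with CLOCK on E-box sequences and switches on the period genes, *Ciart*, *Nr1d1*, *Nr1d2*, *Dbp* and *Tef*, and the period and CIART proteins then hold that pair back. The nuclear receptors REV-ERBα (*Nr1d1*) and REV-ERBβ (*Nr1d2*) repress *Arntl* on elements that the ROR receptors use to activate it, so *Arntl* RNA usually peaks when *Dbp* and *Nr1d1* RNA are low. In the kidney this loop drives daily rhythms of tubular transport and metabolism.

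The sequences through which the loop is known to work were looked for in RefSeq promoter windows (GRCm38.p6) that run from 250 bases before to 50 bases after a start site. Of the 9 genes, 8 had a window, 13 windows in all, and *Per2* had none. The E-box CACGTG was in windows of 3 members, the E-box variant CACGTT in 1 and the ROR element core (TAGGTCA or TGGGTCA) in 1, with both strands searched. The D-box (TTATGTAA or TTACGTAA) and the CRE (TGACGTCA) were in no member's window. Counted by window, 4 of the 13 held the E-box, 1 the variant and 1 the ROR core. Of 32851 windows of all genes, 7.15% held the E-box, 4.68% the variant, 6.45% the ROR core, 1.06% the D-box and 1.79% the CRE. A match is a description of the letters only. Of the 6 windows with a match, 5 are shown to set these letters beside the RNA values, 5′ to 3′ on the strand of the gene, with the matched letters in capitals. *Ciart* (chr3:95882179-95882478, minus strand) held 3 E-boxes, which began 116, 58 and 44 bases before the start site. *Per1* (chr11:69098699-69098998, plus strand) held 1 at 166 bases before it, and *Tef* (chr15:81802423-81802722, plus strand) 1 at 127 bases before it. The second *Tef* window, not shown, had 1 at 138 bases before its start. *Nr1d1* (chr11:98775328-98775627, minus strand) held the variant, read here from the other strand as AACGTG, at 28 bases before the start. In *Arntl* (chr7:113207261-113207560, plus strand) the ROR core lay 30 bases after the start.
Ciart: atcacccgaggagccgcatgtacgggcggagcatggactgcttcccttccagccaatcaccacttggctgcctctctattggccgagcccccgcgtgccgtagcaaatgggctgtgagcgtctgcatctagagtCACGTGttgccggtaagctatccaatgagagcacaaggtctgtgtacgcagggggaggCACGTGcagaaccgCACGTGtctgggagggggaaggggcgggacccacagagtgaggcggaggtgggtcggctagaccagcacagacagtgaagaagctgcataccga
Per1: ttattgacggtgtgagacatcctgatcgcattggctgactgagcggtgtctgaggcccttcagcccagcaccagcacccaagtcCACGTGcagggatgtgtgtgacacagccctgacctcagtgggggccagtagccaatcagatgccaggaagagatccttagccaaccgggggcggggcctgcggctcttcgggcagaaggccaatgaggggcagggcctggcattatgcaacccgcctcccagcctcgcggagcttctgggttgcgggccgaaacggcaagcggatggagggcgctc
Tef: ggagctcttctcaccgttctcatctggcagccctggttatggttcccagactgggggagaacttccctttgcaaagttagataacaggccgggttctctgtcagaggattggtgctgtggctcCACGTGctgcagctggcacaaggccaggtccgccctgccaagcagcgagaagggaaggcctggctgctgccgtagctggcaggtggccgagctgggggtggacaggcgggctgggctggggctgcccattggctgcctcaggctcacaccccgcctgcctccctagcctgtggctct
Nr1d1: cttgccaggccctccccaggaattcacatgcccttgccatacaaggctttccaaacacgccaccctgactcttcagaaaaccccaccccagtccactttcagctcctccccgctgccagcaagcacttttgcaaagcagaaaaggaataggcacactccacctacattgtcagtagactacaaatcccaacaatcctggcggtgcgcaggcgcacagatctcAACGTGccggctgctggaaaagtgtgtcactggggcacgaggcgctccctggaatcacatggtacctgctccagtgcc
Arntl: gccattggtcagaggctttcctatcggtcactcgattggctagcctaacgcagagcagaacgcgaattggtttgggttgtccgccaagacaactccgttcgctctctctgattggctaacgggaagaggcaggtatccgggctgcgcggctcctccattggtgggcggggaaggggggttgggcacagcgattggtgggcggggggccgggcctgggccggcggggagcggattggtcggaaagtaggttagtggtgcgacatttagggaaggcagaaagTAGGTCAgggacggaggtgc

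Expression is the mean over the nuclei of 1 cluster and 1 mouse, with the counts of each nucleus scaled to 10000, and so is relative to all RNA of the nucleus. The table has 23 clusters in each mouse, hence 92 values for each gene. Of them, 5 were normal proximal tubule (PT) clusters, 2 injured PT clusters and 16 clusters of other cells. Of 41 marker genes of these cell types, 36 were highest in a cluster of their own type. The endothelial markers *Flt1*, *Emcn*, *Meis2* and *Pecam1* were highest in EC-2 and second highest in the cluster named Macrophage. The cluster EC-1 lay below both for these markers, so they do not bear out its name. For the cluster named mesangial cells (MC), *Pdgfrb* was highest there. Its other markers were not, with *Igfbp5* highest in EC-2 and *Itga8* in Macrophage, so its name is only partly borne out. Nuclei per cluster and read depth are not in the table, so no interval could be given. The share of genes at 0 ranged from 15.1% to 63.4% over the columns. In the injured PT clusters of the mice without AAI it ran from 40.8% to 62.6%, and values there are sparse. Within the normal PT clusters it lay between 15.1% and 23% in Control, 21.4% and 31.3% in Control AAI, 15.7% and 23.1% in OE, and 21% and 30.4% in OE AAI. Mouse *Klf6*, which AAI is known to induce, averaged 0.408 in Control, 1.12 in Control AAI, 0.265 in OE and 0.991 in OE AAI over the 23 clusters. The human transgene itself was not analysed here.

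With 1 mouse in each condition there is no replicate error and no test, and the condition and the mouse cannot be told apart. Clusters of 1 mouse are not replicates. A gene was therefore described as called when it differed in 1 direction in at least 20 of the 23 clusters and its mean over the clusters differed at least 1.5 fold, among genes with a mean of at least 0.1 in either mouse. The members and lists were chosen with earlier results of these data known, so counts beside the share of all genes are descriptive. The question for AAI was whether clock genes differed in the injured kidney. It could be asked once in each genotype, in mice that the 2 comparisons do not share. The time of day of collection is not given, so AAI and a collection time shared by the AAI mice cannot be told apart in either.

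Across all 23 clusters, *Arntl* had a lower mean in both mice given AAI than in both mice without it. *Per1*, *Ciart*, *Nr1d1*, *Nr1d2*, *Tef*, *Dbp* and *Per2* had higher means. For *Dbp* this was only 1.03 fold in the OE genotype, and for *Per2* only 1.02 fold in the control genotype. In the control genotype 1 of 8 members tested was called lower (*Arntl*) and 0 higher, where 1.59% of all genes were called lower and 1.36% higher. In the OE genotype 2 of 9 were called higher (*Per1* and *Nr1d1*) and 0 lower, against 2.62% and 5.98% of all genes. No member was called in both genotypes, against 0.541% of all genes called higher and 0.952% called lower in both. The median log2 ratio of AAI to no AAI over the tested members was 0.42 in the control genotype and 0.54 in the OE genotype, and over all tested genes it was 0.04 and 0.05.

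**Figure D1:**
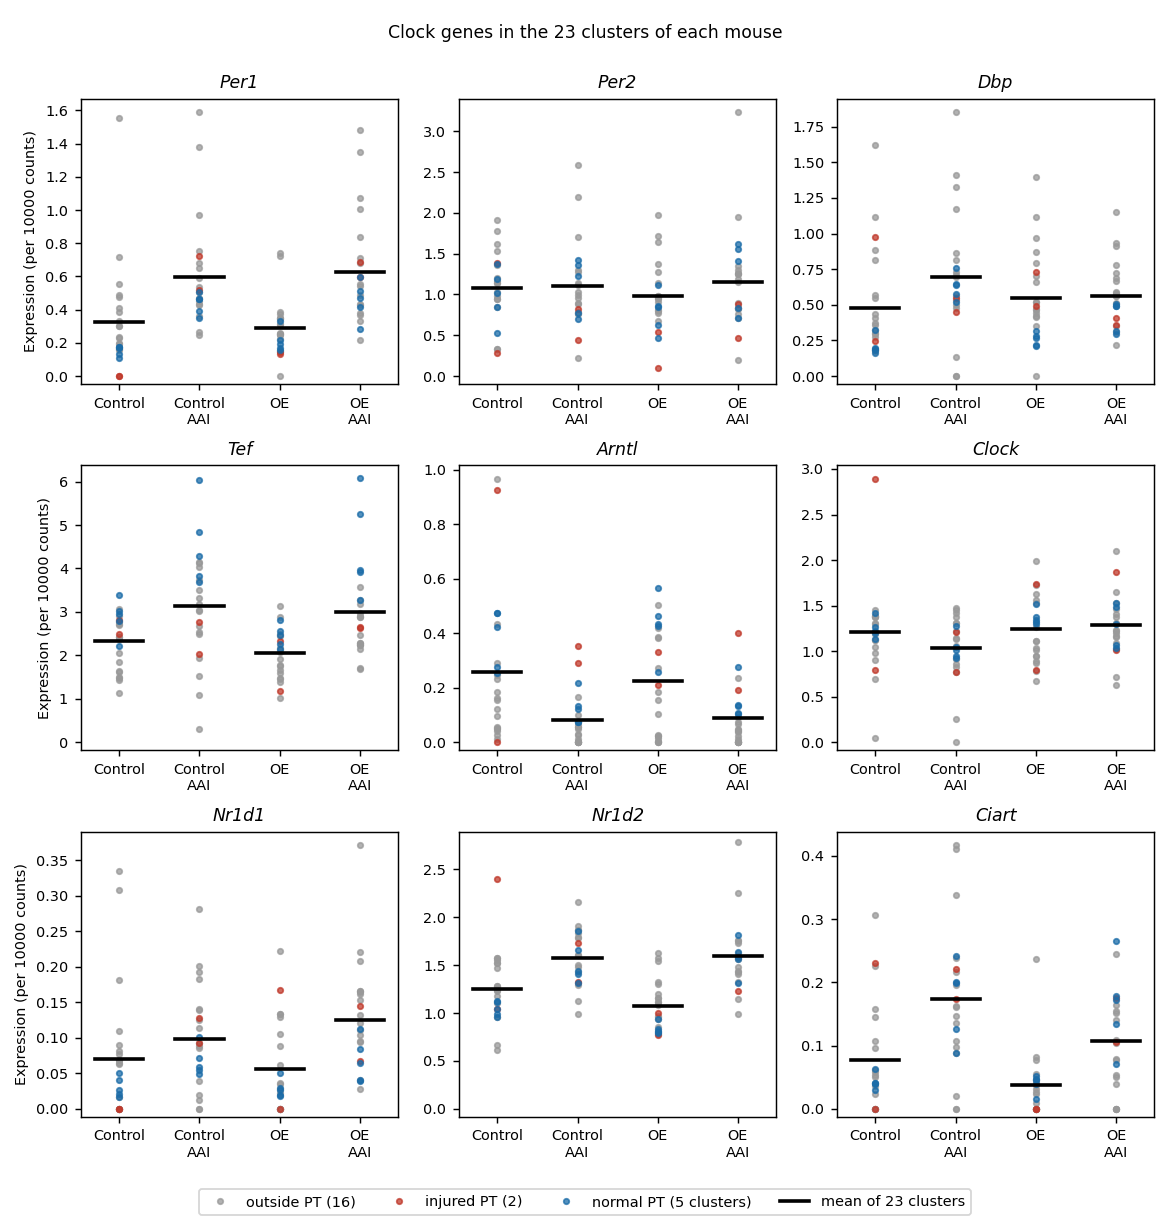
Expression of the 9 clock genes (per 10000 counts, linear axis) in each of the 4 mice. Each point is 1 of 23 clusters, blue for normal PT, red for injured PT and grey for other cells, and the black bar is their mean, which for *Arntl* is 0.259 in Control and 0.0830 in Control AAI.

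Among the activators, the mean of *Arntl* over the 23 clusters was 0.259 in Control, 0.0830 in Control AAI, 0.226 in OE and 0.0885 in OE AAI. Both mice given AAI were thus well under both mice without it, 3.13-fold lower in the control genotype and 2.56-fold lower in the OE genotype. By the median over the clusters of the ratio after adding 0.1 to both values, the log2 ratios were smaller, -0.98 and -0.53. The direction was shared by most clusters, but was without exception only in the normal PT. There both AAI mice were below both other mice in all 5 clusters. Outside the PT this held in 8 of 16 clusters, with the opposite order in 2. Over all mice 15 values outside the PT were at 0, so the extent there is uncertain. The highest Control values were 0.968 in collecting duct principal cells and 0.925 in InjuredPT-B, and the Control mean rests in part on them. *Arntl* was lower after AAI in 20 of 23 clusters in the control genotype and in 16 of 23 in the OE genotype, and both AAI mice were below both other mice in 13. *Clock*, its partner, showed no such order. Its means were 1.21 in Control, 1.03 in Control AAI, 1.24 in OE and 1.29 in OE AAI, lower after AAI in 14 clusters in the control genotype and higher in 12 in the OE genotype.

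The period gene *Per1*, an early light and stress responsive arm of the loop, averaged 0.324 in Control, 0.597 in Control AAI, 0.288 in OE and 0.628 in OE AAI. It was 1.84-fold higher after AAI in the control genotype, in 19 of 23 clusters, which is 1 cluster short of a call. In the OE genotype it rose 2.18 fold, in 20 of 23. Both AAI mice lay above both others in 18 clusters. *Per2* showed little of this pattern over the kidney as a whole. Its means of 1.08, 1.10, 0.977 and 1.15 in Control, Control AAI, OE and OE AAI were within 1.18 fold of each other in both AAI comparisons, higher after AAI in 13 and 15 clusters.

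Among the repressors, *Ciart* had the largest ratios. Its mean was 0.0770 in Control and 0.173 in Control AAI, a ratio of 2.25, and 0.0377 in OE and 0.107 in OE AAI, a ratio of 2.85. It was higher after AAI in 18 and 17 clusters and so was not called, with some clusters at 0 in both mice. *Nr1d1* averaged 0.0702 in Control, 0.0987 in Control AAI, 0.0568 in OE and 0.126 in OE AAI. It was under the level filter in the control genotype, where it was higher in 17 clusters, and it was called at 2.21 fold in the OE genotype, in 20 of 23 clusters. By the median ratio after adding 0.1 its log2 ratio there was 0.49, under 1.5 fold, so that call was lost, and that of *Ciart* was 0.76. *Nr1d2* averaged 1.25, 1.58, 1.07 and 1.59 in the same order, and was higher after AAI in 21 of 23 clusters in each genotype. This was the most even direction of any member, but its ratios of 1.26 and 1.49 were under 1.5. By the median ratio its log2 ratio in the OE genotype was 0.62, past 1.5 fold.

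The output factors are PAR bZIP proteins that pass the rhythm to metabolic genes. *Tef* averaged 2.34 in Control, 3.14 in Control AAI, 2.05 in OE and 2.99 in OE AAI, and was higher after AAI in 17 and 22 clusters, by 1.34 and 1.46 fold. *Dbp* averaged 0.477, 0.692, 0.549 and 0.564 in that order. It was higher after AAI in 19 clusters in the control genotype (1.45 fold) and in 14 in the OE genotype (1.03 fold). Its ratio was thus 0.709 times as large in the OE genotype, a difference between genotypes that was not tested.

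**Figure D2:**
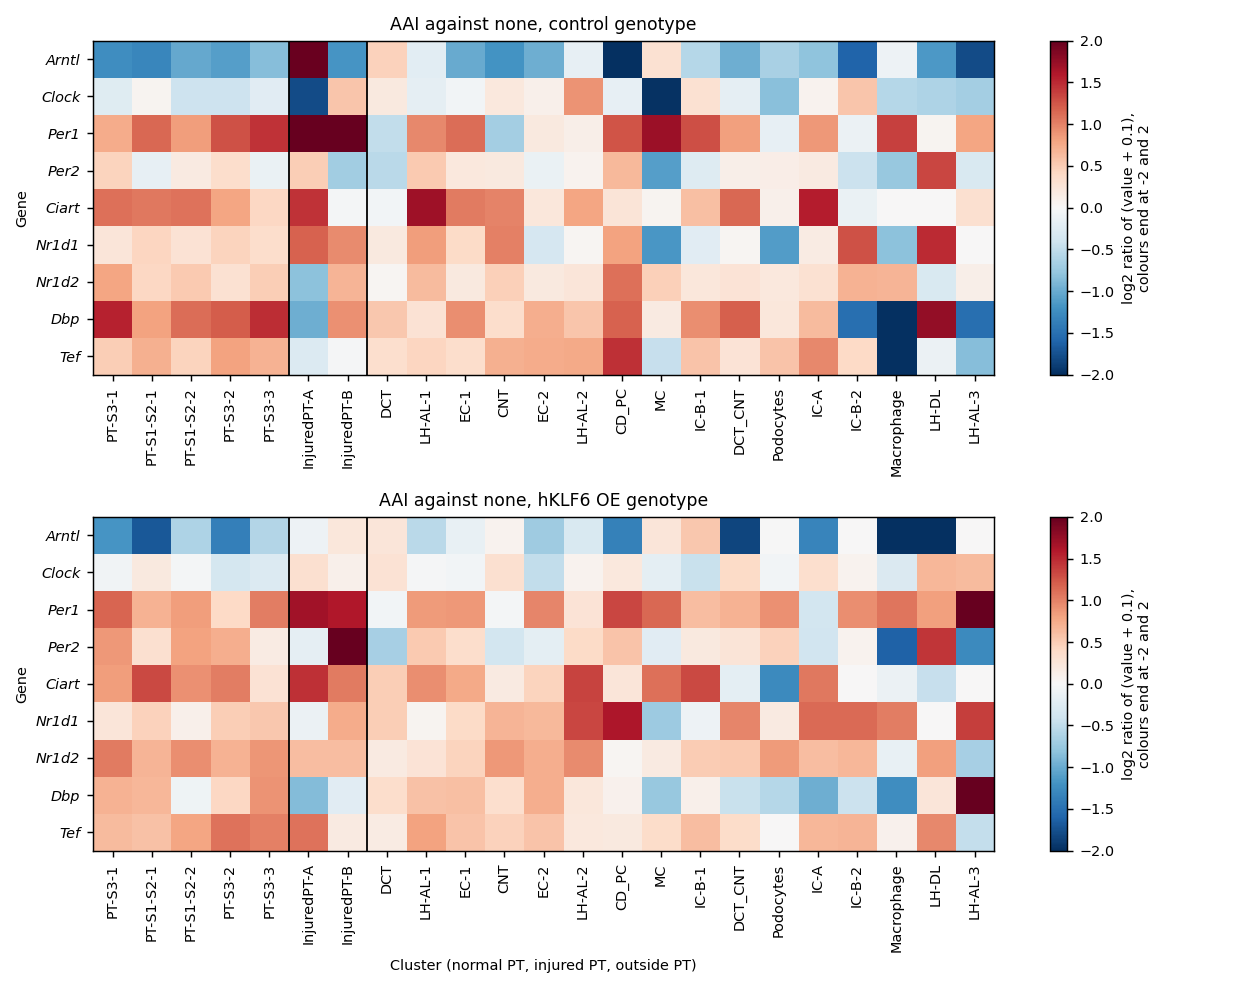
Log2 ratio of AAI to no AAI for each clock gene (rows) in each of 23 clusters (columns), after adding 0.1 to both values, in the control genotype (upper) and the hKLF6 OE genotype (lower). Red is higher and blue lower after AAI, and black lines part the 5 normal PT, 2 injured PT and 16 other clusters. *Arntl* is blue and *Per1*, *Ciart*, *Nr1d1*, *Nr1d2* and *Tef* are red in all 5 normal PT clusters of both genotypes.

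The 5 normal PT clusters, which had few genes at 0, were also described on their own. There a gene was called when all 5 clusters differed in 1 direction and the mean differed at least 1.5 fold. In the control genotype *Per1*, *Dbp*, *Tef* and *Ciart* were called higher and *Arntl* lower, 4 and 1 of 8 members tested, against 4.52% and 6.14% of all genes. In the OE genotype *Per1*, *Per2*, *Tef*, *Nr1d2* and *Ciart* were called higher and *Arntl* lower, 5 and 1 of 8, against 5.62% and 13.5%. Called in both genotypes were *Per1*, *Tef* and *Ciart* (higher) and *Arntl* (lower), that is 3 and 1 of 8 members, against 1.9% and 2.97% of all genes. By a count chosen after the data were seen, both AAI mice lay above both other mice in every one of the 5 clusters for 4 of 8 members (*Per1*, *Tef*, *Nr1d2* and *Ciart*) and below them for 1 (*Arntl*), which held for 4.04% and 4.58% of all genes. *Nr1d1* was under the level filter.

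The mean of *Arntl* over the 5 normal PT clusters was 0.381 in Control, 0.125 in Control AAI, 0.430 in OE and 0.152 in OE AAI. It was 3.05-fold lower after AAI in the control genotype and 2.83-fold lower in the OE genotype. In single clusters it fell from 0.476 to 0.133 in PT-S1-S2-1 of the control genotype and from 0.567 to 0.107 in the OE genotype. The smallest fold was in PT-S3-3, from 0.476 to 0.219 and from 0.463 to 0.277. No normal PT cluster of an AAI mouse reached the same cluster in a mouse without AAI. *Clock* averaged 1.25, 1.04, 1.37 and 1.28 over the normal PT in Control, Control AAI, OE and OE AAI, with 4 of 5 clusters lower after AAI in each genotype and ratios under 1.5.

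*Ciart* averaged 0.0432 in the normal PT of Control, 0.171 in Control AAI, 0.0402 in OE and 0.164 in OE AAI. These ratios of 3.96 and 4.09 were the largest of the members. On average over the 4 mice it was the highest of the normal PT in PT-S1-S2-1, where it rose from 0.0637 to 0.241 in the control genotype and from 0.0455 to 0.265 in the OE genotype. *Per1* averaged 0.151, 0.434, 0.213 and 0.455 in the same order of mice, 2.88-fold and 2.13-fold higher after AAI. *Per2* averaged 0.992, 1.10, 0.779 and 1.22, with ratios of 1.10 in the control genotype, where 3 of 5 clusters were higher, and 1.57 in the OE genotype, where all 5 were. *Per1* was thus called in both genotypes and *Per2* in the OE genotype, and the difference between the period genes was not tested.

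*Nr1d1*, at low values throughout, averaged 0.0307 in Control, 0.0671 in Control AAI, 0.0290 in OE and 0.0679 in OE AAI. All 5 normal PT clusters were higher after AAI in each genotype, with ratios of 2.19 and 2.34. *Nr1d2* averaged 1.05, 1.53, 0.833 and 1.58, ratios of 1.47 and 1.90, and again all 5 clusters were higher in each genotype. Both REV-ERB genes thus stood opposite to *Arntl*, the gene they are known to repress, and a link between these values was not tested.

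*Tef* averaged 2.88 in the normal PT of Control, 4.54 in Control AAI, 2.45 in OE and 4.50 in OE AAI, with ratios of 1.58 and 1.83. It was highest in PT-S3-2, where it rose from 3.40 to 6.04 and from 2.82 to 6.08. *Dbp* averaged 0.212, 0.627, 0.258 and 0.421, with ratios of 2.96 and 1.63. In the control genotype all 5 clusters were higher, with PT-S3-1 going from 0.195 to 0.760. In the OE genotype 4 were higher, and PT-S1-S2-2 was 0.318 without AAI and 0.295 with it.

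**Figure D3:**
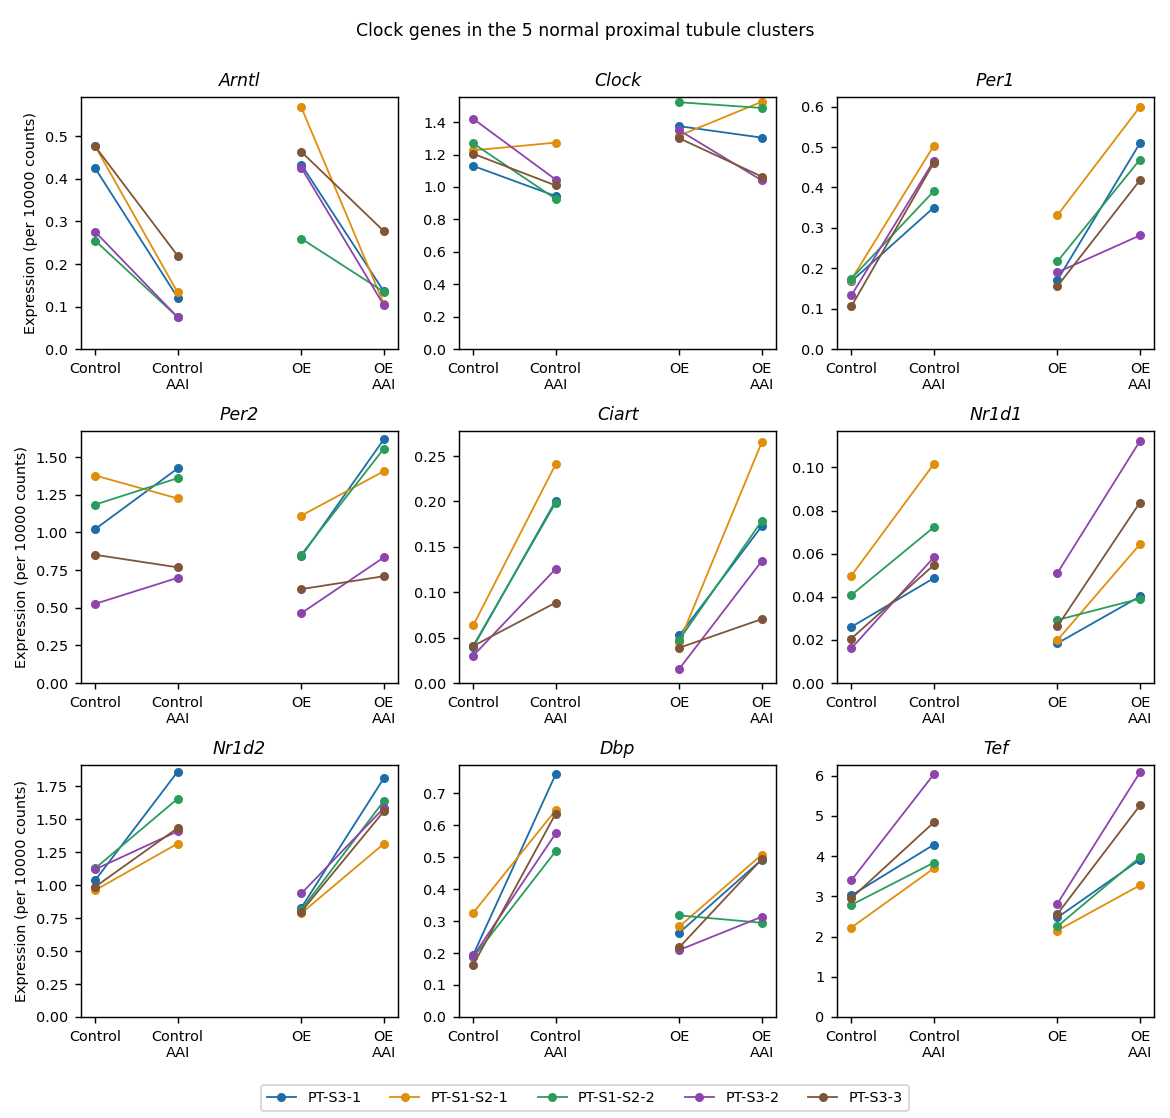
Expression of the clock genes (per 10000 counts, linear axis from 0) in the 5 normal PT clusters, 1 colour per cluster, with lines joining the mouse without AAI to the mouse with AAI of the same genotype. Every line falls for *Arntl* and climbs for *Per1*, *Ciart*, *Nr1d1*, *Nr1d2* and *Tef*, and 1 of 5 lines for *Dbp* in the OE genotype does not climb.

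Outside the PT, over 16 clusters, the directions were mostly alike but less even. *Arntl* averaged 0.196 in Control, 0.0398 in Control AAI, 0.157 in OE and 0.0427 in OE AAI, lower after AAI in 14 and 10 of 16 clusters. *Per1* averaged 0.419, 0.645, 0.330 and 0.680 and was higher in 12 and 13 of 16. *Nr1d2* averaged 1.25, 1.60, 1.17 and 1.62 and was higher in 15 and 14. *Ciart* was higher in 12 and 10, with ratios of 2.07 and 2.05 where the normal PT had 3.96 and 4.09. *Dbp* had a ratio of 1.36 in the control genotype and 1.00 in the OE genotype, and *Nr1d1* 1.17 and 2.35. The differences between PT and other cells were not tested.

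The injured PT clusters can be compared with the normal PT of the same mouse, so that both values come from 1 library. This comparison was chosen after the data were seen, and a gene was called when both AAI mice differed at least 1.5 fold in 1 direction. InjuredPT-A had 40.5% of all genes called higher and 17.5% lower, so a call there is common. Of the 9 members, *Per1* and *Nr1d1* were called higher in it and *Per2* and *Tef* lower. *Per2* was 0.442 in InjuredPT-A of Control AAI against 1.10 in its normal PT, and 0.466 against 1.22 in OE AAI, 2.48-fold and 2.63-fold lower. *Per1* was 0.726 against 0.434 and 0.688 against 0.455. The period genes therefore stood on opposite sides of the normal PT level in this cluster. *Tef* was 2.04 against 4.54 and 2.64 against 4.50. In InjuredPT-B, where 15% of all genes were called higher and 6.27% lower, *Arntl* was called higher and *Tef* lower, 1 of 8 members tested in each direction. *Arntl* was 0.354 in InjuredPT-B against 0.125 in the normal PT of Control AAI and 0.403 against 0.152 in OE AAI, which is 2.83-fold and 2.66-fold higher. *Tef* was 1.63-fold and 1.70-fold lower. The normal PT of the mice without AAI had 0.381 and 0.430 beside these values.

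For hKLF6 OE, the question was whether clock genes differed with the transgene, without injury and after AAI. These comparisons use the same 4 mice as those above. No member was called across the 23 clusters. Without injury 7 members were tested, with 2.25% of all genes called higher and 0.527% lower, and after AAI 8 were tested, with 0.236% and 0.825%. In the normal PT clusters no member was called either, where the shares of all genes were 5.49% higher and 2.25% lower without injury, and 1.79% higher and 3.22% lower after AAI. The nearest to a call was *Dbp* after AAI, 0.627 in Control AAI and 0.421 in OE AAI, lower in 5 of 5 clusters by 1.49 fold. Without injury *Per1* was 1.41-fold higher in the normal PT of OE, in 5 of 5 clusters, while its mean over the 23 clusters was 0.888 times that of Control. *Tef*, *Nr1d2* and *Per2* were each lower in 5 of 5 normal PT clusters of OE without injury, by 1.17, 1.26 and 1.27 fold. The share of all genes with 5 of 5 clusters in 1 direction at any fold is not given here. These shared directions under 1.5 fold, that of *Per1* included, are thus not set apart from those of other genes.

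Some members varied more with the mouse than others did. The variation of log2(value + 0.1) in the table of 23 clusters and 4 mice was divided into a part between mice, a part between clusters and the rest. Between mice lay 36.1% of it for *Nr1d2*, 31.4% for *Per1* and 28.1% for *Ciart*, beside a median of 3.95% over 9858 genes. The shares were 16.6% for *Arntl*, 15.5% for *Nr1d1* and 13.6% for *Tef*. *Clock* had 5.93%, above that median, and *Dbp* with 3.73% and *Per2* with 1.26% were under it. *Ciart* and *Nr1d1* were below the mean of 0.1 that the median was taken over, and their values are sparse. *Per2* had 52.1% of its variation between clusters and *Nr1d2* 19%, where the median gene had 46.0%.

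The order of the clusters differed from member to member. *Per1* was highest in podocytes (mean of 4 mice 1.29, range 0.738 to 1.56) and lowest in PT-S3-2 (0.268, range 0.133 to 0.466). *Dbp* led in the cluster named mesangial cells (1.41, range 0.781 to 1.85), followed by podocytes at 1.07 and EC-2 endothelial cells at 1.01. *Nr1d1* also led in the cluster named mesangial cells, at 0.186. *Per2* was highest in the collecting duct principal cells (1.86, range 1.28 to 2.59) and the connecting tubule (1.75), and lowest in InjuredPT-A (0.434). *Tef* and *Arntl* had the PT at the top instead. *Tef* was highest in PT-S3-2 (4.58, range 2.82 to 6.08) and lowest in the Macrophage cluster (1.31). *Arntl* was highest in InjuredPT-B (0.503, range 0.330 to 0.925), then PT-S3-3 (0.359) and PT-S1-S2-1 (0.321), and lowest in IC-B-1 intercalated cells (0.0233, range 0 to 0.0487). *Clock* peaked in IC-B-2 at 1.64, *Nr1d2* in EC-2 at 1.73 and *Ciart* in LH-AL-1 of the ascending limb at 0.201. For each of the 9 members all 22 pairs of neighbours in the order had ranges over the 4 mice that overlapped, so no neighbours were separated.

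**Figure D4:**
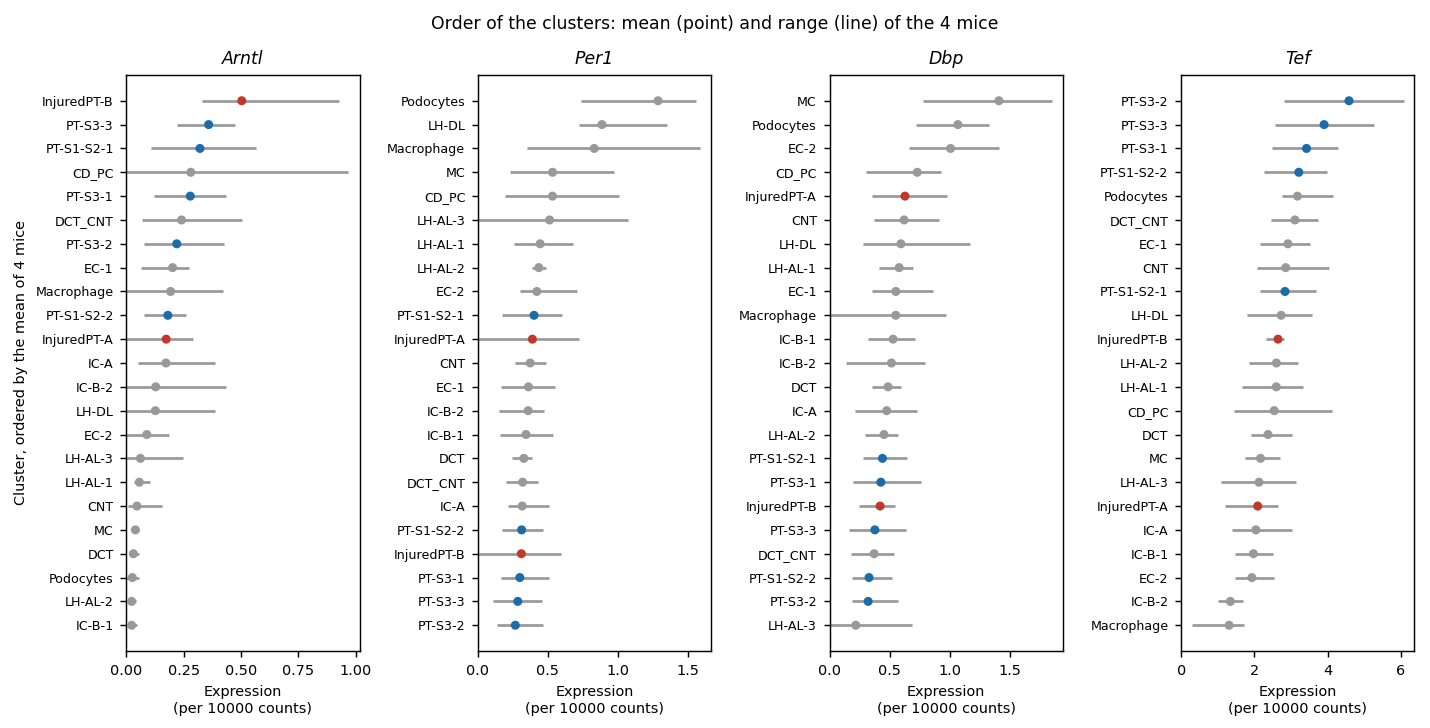
Expression of *Arntl*, *Per1*, *Dbp* and *Tef* (per 10000 counts, linear axis) in the 23 clusters, ordered by the mean of the 4 mice (point), with the range from the lowest to the highest mouse (line). Blue marks normal PT, red injured PT and grey other cells, and PT-S3-2 is the highest cluster for *Tef* (4.58) and the lowest for *Per1* (0.268).

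Other genes of the loop were taken from a list of 10 core clock genes. By the rule over 23 clusters, 0 of 7 tested were called higher and 1 lower after AAI in the control genotype, and 1 higher and 1 lower in the OE genotype. The shares over all genes were 1.36% and 1.59% in the control genotype and 2.62% and 5.98% in the OE genotype. *Rora*, a known activator of *Arntl*, fell from 10.1 to 6.45 and from 7.55 to 4.78. *Bhlhe40*, a repressor at E-boxes, was 0.595 and 0.988 and rose from 0.541 to 0.930. *Npas2*, which can stand in for CLOCK, had the smallest ratios of the list, 0.396 and 0.249, with means of 0.251 and 0.0992 in the control genotype and 0.241 and 0.0600 in the OE genotype. The largest log2 ratios were 1.12 for *Bhlhe41* in the control genotype, which was under the level filter, and 1.11 for *Rorb* in the OE genotype. *Rorb* had no shared direction there, higher after AAI in 6 clusters and lower in 6. Its normal PT means were at most 0.00848 in any mouse. In the normal PT clusters 2 of 6 tested were called lower in both genotypes (*Npas2* and *Rora*) and 0 higher, against 2.97% and 1.9% of all genes. There *Npas2* fell from 0.508 to 0.123 and from 0.540 to 0.0762, the same direction as *Arntl*, its known partner.

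Of 8 kinases and ubiquitin ligases that set the stability of clock proteins, 7 were tested and 0 were called after AAI in either genotype. Their log2 ratios ran from -0.62 (*Csnk1e*) to 0.98 (*Fbxl21*, under the level filter) in the control genotype, and from -0.27 (*Fbxl21*) to 0.61 (*Csnk1d*) in the OE genotype. Of 7 outputs that cycle in many tissues, 0 were called, with log2 ratios from -0.06 (*Por*) to 0.61 (*Tspan4*) and from -0.46 (*Usp2*) to 0.46 (*Tspan4*). With 1.36% of all genes called higher and 1.59% lower in the control genotype, and 2.62% and 5.98% in the OE genotype, counts of 0 in lists this short say little about them.

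Genes that respond to glucocorticoids and immediate early genes were counted too, since both kinds of signal are known to act on *Per1*. Of 8 glucocorticoid-responsive genes, 1 was called higher in the control genotype (*Fkbp5*, from 1.93 to 3.33) and 0 in the OE genotype (*Fkbp5* 2.93 and 3.23), where 1.36% and 2.62% of all genes were called higher. The log2 ratios ran from -0.01 (*Klf9*) to 1.99 (*Mt2*) in the control genotype and from -0.26 (*Mt1*) to 0.64 (*Zbtb16*) in the OE genotype. In OE without injury 1 was called higher than in Control (*Mt1*, from 0.433 to 0.731), against 2.25% of all genes. Of the 8 immediate early genes, *Fos*, *Junb* and *Egr1* were called higher in the control genotype, 3 of 5 tested, and *Fos*, *Jun*, *Junb*, *Egr1* and *Ier2* in the OE genotype, 5 of 6, against the same 1.36% and 2.62% of all genes. *Egr1* rose from 0.436 to 2.10 and from 0.195 to 2.25. In the normal PT clusters 4 of 5 tested were called higher after AAI in both genotypes (*Fos*, *Junb*, *Egr1* and *Ier2*). Of all genes 1.9% were. The mice without AAI also differed in the normal PT clusters. There *Jun*, *Junb*, *Egr1* and *Ier2* were called lower in OE than in Control, where 2.25% of all genes were. *Egr1* was 0.420 in Control and 0.199 in OE. *Fkbp5*, *Sgk1* and *Mt1* were called higher in OE there, where 5.49% of all genes were. Between the AAI mice, *Fos*, *Ier2*, *Mt1* and *Mt2* were called lower in the normal PT of OE AAI than of Control AAI. *Zbtb16* was called higher. The shares of all genes were 3.22% lower and 1.79% higher. *Fosb* was listed at 0 in both mice without AAI. *Atf3* had the largest log2 ratios, 3.72 and 7.59, from values near 0 (0.00606 and 0.000611), and the smallest were 0.94 for *Jun* in the control genotype and 1.13 for *Klf4* in the OE genotype. The median log2 ratio of the tested immediate early genes was 2.18 and 3.22. The part of these genes in the *Per1* values was not tested.

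The genes whose pattern over the mice was most like that of *Per1*, *Dbp* and *Arntl* were looked for among 4267 genes with a mean of at least 0.5. Likeness was Pearson's r over 92 values of log2(value + 0.1), each with the mean of its cluster subtracted, and the 92 values come from 4 libraries and so are not independent. Most like *Per1* were *Btg2* (r = 0.79), *Mdm2* (0.75), *Rnf169* (0.74), *Ubl3* (0.74) and *Gdf15* (0.73). *Mdm2* averaged 0.940, 3.20, 0.760 and 3.16 in Control, Control AAI, OE and OE AAI. Least like it were *Park2* (r = -0.76), *Ndrg1* (-0.75), *Pank1* (-0.73), *2210408I21Rik* (-0.72) and *mt-Nd3* (-0.72). Most like *Arntl* were *Adhfe1* (r = 0.58), *Sec23b* (0.55), *Atp6v0b* (0.54), *Ddx5* (0.54) and *Gm42397* (0.52), and least like it *Exoc4* (-0.59), *Nrg1* (-0.58), *Ccng1* (-0.58), *Myo1e* (-0.54) and *Luc7l2* (-0.53). For *Dbp* the highest were *Cyp2a4* (r = 0.68), *Cyp2j13* (0.66), *Snx27* (0.55), *Invs* (0.55) and *Sh3tc2* (0.55), and the lowest *Ide* (-0.56), *Agps* (-0.55), *Capza1* (-0.53), *Ttll4* (-0.53) and *Zufsp* (-0.53). Among the members themselves *Tef* was the most like *Dbp* (r = 0.50) and the least like *Arntl* (r = -0.50), and *Ciart* was the most like *Per1* (r = 0.46).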

How the data were processed

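Kidney cortex nuclei of 4 mice, 1 per condition, were sequenced. Per the labels and the study's methods, the authors used Cell Ranger with a pre-mRNA reference of mm10 to count reads, so intronic reads are included, filtered nuclei by genes detected and mitochondrial share, and clustered them with Seurat. Doublet removal is not described for these nuclei. The deposited signal values are means by the authors over the nuclei of a cluster and mouse after scaling each nucleus to 10000 counts. Every column sums to 10000, which is how the unit was read. Of 19632 rows, 23 with date-like names were left out. Cluster names follow the order of the study's marker sheets and were checked on markers.

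Python 3.11.15, numpy 2.4.6 and pandas 2.3.3 were used for means over clusters (each cluster weighted alike), ratios, counts of clusters and Pearson's r. Log2 values for variation, likeness and the ratio map used a pseudocount of 0.1, and the level filter was a mean of at least 0.1. Ratios of means used no pseudocount. No test was made. The calling rule was tested on simulated data: of 200 genes changed 1.5 fold among 9858, 17% of those raised and 9% of those lowered were called, and at 2 fold 66% and 50%. Of the unchanged genes, 0.0104% were called in the 1.5 fold setting. In this simulation changes near the threshold were thus mostly missed. Its noise was drawn for each cluster alone, with no shift shared by the clusters of a mouse. It therefore does not give the rate of calls between 2 mice of 1 condition. The members and lists were chosen with earlier results of these data known. Named were all members, genes of the lists that were called or had the largest or smallest log2 ratio after AAI, those called for hKLF6 OE, and the 5 genes most and least like *Per1*, *Dbp* and *Arntl*. In the normal PT clusters, list genes called in both genotypes were also named, and, after their values were seen, those called for hKLF6 OE without injury or after AAI. One further listed gene is not reported here. Promoter windows are from RefSeq. Alternatives were the number of clusters, the fold, the level filter, subsets of clusters, the pseudocount and centring on the median.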

Additional observations from a re-analysis of the deposited data

Results flagged for a closer look

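In the normal PT clusters, 2 genes of the glucocorticoid list were called in opposite directions in matched comparisons, which was not tested. The ratio of AAI to no AAI of *Fkbp5* was 1.84 in the control genotype and 0.651 in the OE genotype, with means of 1.62 in Control, 2.97 in Control AAI, 4.54 in OE and 2.96 in OE AAI. The ratio of OE to control of *Mt1* was 1.57 without injury and 0.461 after AAI, with means of 0.244 in Control, 0.561 in Control AAI, 0.382 in OE and 0.259 in OE AAI.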

How the results depend on the processing

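No paired analysis was possible because each condition has 1 mouse, and for the same reason no mouse could be left out. No setting turned the direction of a called member. Of 468 ratios of members recomputed, 444 moved little and 24 moved further, 0 of them turning a called direction. Settings that change only the number of clusters, the fold or the level filter leave a ratio as it was. Many of the 444 thus could not move, and their number does not measure stability. The number of members called for AAI in the control genotype, 1 as reported, was 3 with 18 of 23 clusters (all genes 3.28% higher and 3.04% lower), 2 at 1.2 fold (2.67% and 2.38%), 2 without the injured PT clusters (1.44% and 1.87%), 4 in the 12 clusters with at most 40% of genes at 0 (2.31% and 3.1%) and 5 in the normal PT (4.52% and 6.14%). It was 0 when all 23 clusters had to share a direction (0.126% and 0.251%), 0 with a mean of at least 0.5 (2.23% and 2.79%) and 0 by the median ratio with a pseudocount of 1 (0.126% and 0.319%). In the OE genotype the number, 2 as reported, was 4 at 1.2 fold (5.91% and 7.21%), 4 in the 12 clusters (3.29% and 9.16%) and 6 in the normal PT (5.62% and 13.5%). It was 1 outside the PT (2.15% and 5.27%), 1 with a mean of at least 0.5 (4.45% and 8.72%), 1 after centring on the median (2.03% and 6.90%), 0 with all 23 clusters (0.358% and 1.15%) and 0 by the median ratio with a pseudocount of 1 (0.232% and 0.803%). Of the 30 genes named for likeness, 15 were named again with a pseudocount of 1 and 13 without the injured PT clusters. Without nuclei and depth per column in the table, the low values of *Nr1d1*, *Ciart* and *Arntl* limit what single clusters show. The causes of these shifts were not tested.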

Other observations

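In the normal PT clusters 2 further genes of the core clock list had values that the rule for named genes did not choose, and they were picked after their values were seen. *Nfil3*, a repressor at the D-boxes that DBP and TEF activate, averaged 0.105 in Control, 0.0276 in Control AAI, 0.0624 in OE and 0.0149 in OE AAI. It was called lower in the control genotype, where only its Control mean passed the filter of 0.1. In the OE genotype it was under the level filter. *Hlf*, the third PAR bZIP factor beside *Dbp* and *Tef*, averaged 2.30, 3.53, 3.37 and 4.19 in that order, and was called higher in the control genotype (1.53 fold) and not in the OE genotype (1.24 fold). *Nfil3* thus stood lower, and *Hlf* higher, in the mouse with AAI of each genotype. Of all genes, 6.14% were called lower and 4.52% higher in the control genotype there. Others of the list were less even. *Bhlhe40* was called higher in the OE genotype alone (1.31 and 1.52 fold), where 5.62% of all genes were. *Cry1* (ratios 0.794 and 0.758) and *Cry2* (0.776 and 0.888) were not called. Whether these differences exceed those between mice of 1 condition could not be tested.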
